A study of Homo sapiens with 5 samples.

Results

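The mitochondrially encoded genes are the genes of the small circular chromosome that human cells keep inside their mitochondria, and here they were taken as all genes whose symbols start with MT-. There were 37 of them among the 21200 human genes listed in any library and the 15266 listed in all 5 libraries. By symbol they split into 2 rRNA genes (MT-RNR), 22 tRNA genes (MT-T) and 13 protein-coding genes, and the annotation of the mitochondrial chromosome in hg38 also holds 37 genes on 16569 bases. SW480 is a colorectal cancer cell line, and the cells studied carried GFP, were grown as xenografts in zebrafish and were dissected from tumors at 1 or 4 days post injection (dpi). No drug or genetic change separated the groups. They differed in time in the host, and each time point also had its own plates, which this design cannot separate from time. Sorted single cells were profiled by SORT-seq, which primes RNA at poly(A), in 5 plates of 384 wells, and each plate is a library: libraries 6, 7 and 8 at 1 dpi and libraries 10 and 11 at 4 dpi, and values per library are given in that order. The cells of a plate came from dissociated tumors with no label for the animal, so the plate is the replicate. Nothing says that the plates came from separate pools of tumors, and the p-values therefore measure only the spread between these libraries.

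Both strands of the mitochondrial chromosome are transcribed into long precursors, which are cut at the tRNAs that lie between most of the other genes. The rRNAs form the core of the mitochondrial ribosome, the tRNAs decode its messages, and the proteins are subunits of respiratory complexes I, III and IV and of ATP synthase, complex V. The rRNAs and the messages other than that of MT-ND6 receive short poly(A) tails, whereas a mature tRNA is finished with CCA, and the total share of mitochondrial RNA in a cell is widely used as a sign of cell condition in single-cell data.

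A well was taken as a cell when more than 2000 human genes had a unique molecular identifier (UMI, 1 counted molecule). There were 886 such cells among 1920 wells, 538 of them at 1 dpi, and they held 26230807 UMIs of human genes, of which 3352950 were mitochondrially encoded. The cells of a library summed to between 4148013 and 7515591 UMIs. With a limit of 25% mitochondrial UMIs 822 cells were left, 531 of them at 1 dpi, and 826 when spike-in UMIs were counted in the total, 533 of them at 1 dpi. The cells of 25% or more were kept here. All 37 genes had UMIs in the cells of libraries 6, 7, 8 and 11, and 36 had them in library 10, where MT-TP had 0 UMIs against 1 to 6 in the others. No library was a copy of another of its time point, as their counts over the mitochondrial genes differed at chi-square values per degree of freedom between 36.4 and 91.8, and any separate samples of this depth can be expected to differ beyond counting noise.

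Sequences of 5 tRNA genes are shown because MT-TT, MT-TH and MT-TF are the tRNA genes whose rise with time stood with any library left out, MT-TV is the one that fell most between the bands among the tRNA genes tested, and MT-TK had the most UMIs of any tRNA. They are the + strand of hg38, 5′ to 3′, and capitals mark the longest run of A, the base that an oligo(dT) primer pairs with, which in MT-TK is the second of 2 runs of equal length. They lie at chrM:15888-15953 (MT-TT), chrM:12138-12206 (MT-TH), chrM:577-647 (MT-TF), chrM:1602-1670 (MT-TV) and chrM:8295-8364 (MT-TK).
MT-TT: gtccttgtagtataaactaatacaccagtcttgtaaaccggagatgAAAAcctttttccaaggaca
MT-TH: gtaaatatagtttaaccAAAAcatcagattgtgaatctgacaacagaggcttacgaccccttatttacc
MT-TF: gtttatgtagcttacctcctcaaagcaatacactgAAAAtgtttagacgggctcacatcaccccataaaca
MT-TV: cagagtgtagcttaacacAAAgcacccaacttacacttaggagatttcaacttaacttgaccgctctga
MT-TK: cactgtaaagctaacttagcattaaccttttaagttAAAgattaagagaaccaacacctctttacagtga
The longest run of A was 4 bases in the first 3 of these and 3 bases in MT-TV and MT-TK, and it ranged from 2 to 6 bases over all 22 tRNA genes, from 6 to 7 over the rRNA genes and from 3 to 8 over the protein-coding genes.

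Of the 13 protein-coding genes, 6 have a length that is no multiple of 3, so that their stop codon is completed only by the poly(A) tail. Their last 30 bases are shown for that reason, with capitals for the bases left after the last whole codon. The stretches lie at chrM:4233-4262 (MT-ND1), chrM:5482-5511 (MT-ND2), chrM:10375-10404 (MT-ND3), chrM:12108-12137 (MT-ND4), chrM:15858-15887 (MT-CYB) and chrM:9961-9990 (MT-CO3), all on the + strand of hg38.
MT-ND1: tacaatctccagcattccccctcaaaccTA
MT-ND2: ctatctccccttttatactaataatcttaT
MT-ND3: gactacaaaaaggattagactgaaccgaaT
MT-ND4: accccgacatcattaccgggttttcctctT
MT-CYB: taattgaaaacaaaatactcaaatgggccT
MT-CO3: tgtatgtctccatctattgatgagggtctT
In MT-ND1 the bases left are TA, and in the other 5 genes a single T.

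The mitochondrial share of human UMIs was 11.98, 11.9 and 11.2% at 1 dpi and 14.6 and 15.4% at 4 dpi. Both libraries of 4 dpi were above all 3 of 1 dpi, with means of 11.7% ± 0.421 (SD, n = 3) and 14.99% ± 0.516 (SD, n = 2). The difference of 3.31 percentage points had p = 0.1 in an exact two-sided permutation test, the smallest p that 10 assignments of the libraries allow. Flow cell here means a field in the names of the deposited counts, and no sample label gives it. The difference was 2.71 points within the flow cell of libraries 6, 7 and 10 and 4.16 points within that of libraries 8 and 11. It was 5.78 points as a mean over cells, 1.82 points in cells of more than 3000 genes and 0.471 points in cells under 25%, and it turned to −1.48 points in cells under 15%, a limit set on the share itself. Counted against the spike-in RNA of the same wells, the mitochondrial UMIs were 12.8, 13.7 and 6.23 per spike-in UMI at 1 dpi and 15.02 and 6.98 at 4 dpi. On that scale the groups overlapped (exact permutation p = 1), and the libraries separated by flow cell, with 4 dpi higher by 1.74 and 0.749 within the flow cells. Spike-in UMIs were 0.927, 0.855, 1.77, 0.964 and 2.15% of the UMIs in libraries 6, 7, 8, 10 and 11. MALAT1 and NEAT1, looked at as signs of RNA quality, were also higher at 4 dpi, at log2 differences by level of 0.70 and 1.28. Whether the mitochondrial share follows RNA quality was not tested.

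Cells were placed in 4 bands of mitochondrial share: under 10%, 10 to 15%, 15 to 25% and 25% or more. Cells of 25% or more made up 0.873, 2.07 and 1.22% of the cells of libraries 6, 7 and 8 and 16.6 and 16.2% of those of libraries 10 and 11, with no overlap (exact permutation p = 0.1). The band of 10 to 15% moved the other way, from 35.4, 38.6 and 34.1% of the cells to 17.2 and 21.99% (exact permutation p = 0.1). The shares of cells under 10% and of 15 to 25% overlapped between the time points. The highest band held 64 cells, 7 of them from 1 dpi, so that it was compared with the others only in libraries 10 and 11. Within 1 point of the limits, 60 cells lay just below 10% and 53 just above, 48 below 15% and 53 above, and 12 below 25% and 3 above.

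**Figure D1:**
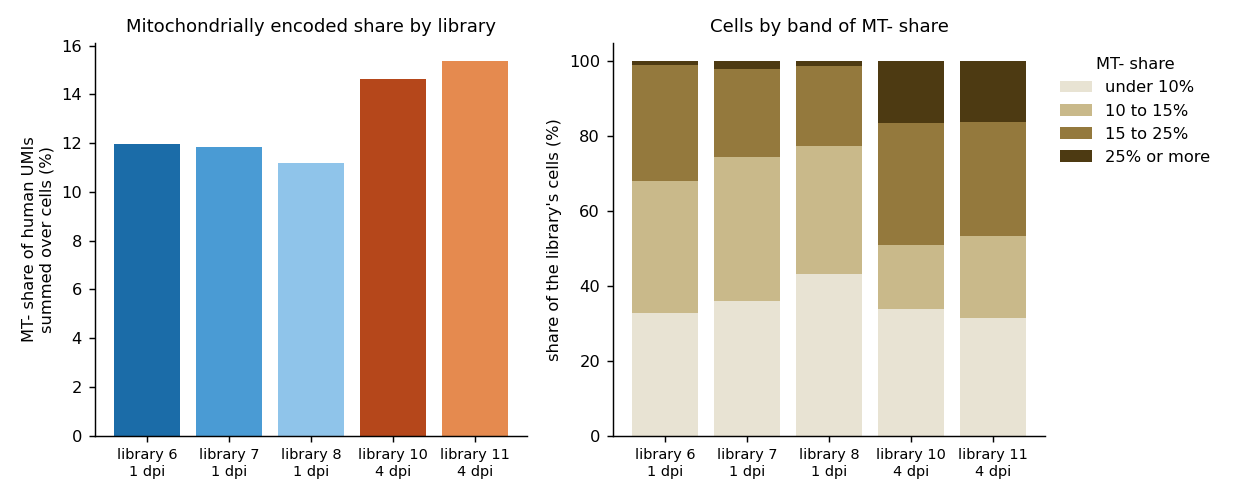
Left: share of human UMIs from mitochondrially encoded genes, summed over the cells of each library (%). Right: share of each library's cells in the 4 bands of mitochondrial share (%). Libraries 10 and 11 of 4 dpi are highest in both the total share, 14.6 and 15.4%, and the cells of 25% or more, 16.6 and 16.2%.

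The band set the total share, so the total itself was not tested between bands, but the spike-ins show what else differed. From under 10% to 15 to 25%, the median of mitochondrial UMIs per spike-in UMI was higher in 5 of 5 libraries, with a mean difference of 7.32 ± 3.09 (SD, n = 5), and that of all other UMIs per spike-in UMI was lower in 5 of 5, by a mean of −25.2 ± 18.1 (SD, n = 5). These directions follow in large part from how the bands were made, so the p of 0.063 that each had in an exact sign-flip permutation test was not counted as evidence. The cells of 15 to 25% also had fewer genes, with a mean over libraries of 5104 against 6102. In the cells of 25% or more of libraries 10 and 11, other UMIs per spike-in UMI were 27.2 and 12.01, against 104.3 and 40.2 under 10%, and mitochondrial UMIs per spike-in UMI were 25.2 and 10.4, against 5.92 and 3.21.

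The 37 genes were tested with edgeR's quasi-likelihood test in 1 fit across all genes, with Benjamini-Hochberg adjustment over all genes and a threshold of 0.05. Between time points 29 of the 37 passed the low-count filter, and the 8 that did not were tRNA genes with 13 to 41 UMIs in all cells. By level, relative to all genes, 21 of the 29 were higher at 4 dpi and 0 were lower, while over all 12633 genes tested 14.6% were higher and 15.5% lower. None of the 29 was lower with DESeq2 either, which called 18 higher, where it called 1307 of all 12633 genes higher and 1433 lower. With edgeR 22 of the 29 had an unadjusted p under 0.05. This level follows the total share of the library. It gave 13 higher and 0 lower in cells of more than 3000 genes, where 1746 and 1870 of all 12584 genes were called. In cells under 25% it gave 9 higher and 3 lower, where 1691 and 1790 of all 12643 were called. In cells under 15% it gave 3 higher and 8 lower, where 1294 and 1325 of all 12332 were called. Per spike-in UMI it gave 0 in either direction. On that last scale 1 of all 12633 genes was higher and 2 were lower, and MT-TT, at a log2 difference of 2.87, had an adjusted p of 0.0999.

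The composition of the mitochondrial RNA was therefore tested apart from its amount, with each MT- gene taken relative to the mitochondrial UMIs of its library and every other gene relative to the remaining UMIs. In this fit 9 of the 29 genes rose within the mitochondrial total at 4 dpi, where 14.3% of all genes were called higher, and 4 fell, where 15.8% were called lower. Those that rose were MT-RNR2, MT-ND1, MT-ND5 and the tRNA genes MT-TF, MT-TL1, MT-TH, MT-TS2, MT-TL2 and MT-TT, and those that fell were MT-ND4, MT-CYB, MT-CO2 and MT-ATP6. The counts were 6 and 3 without library 11. In cells under 10% alone they were 6 and 4 of 24 tested, where 883 and 941 of all 10952 genes were called. They were 5 and 3 of 24 from 10 to 15%, where 909 and 1267 of all 10558 were called. From 15 to 25% they were 7 and 2 of 26, where 909 and 985 of all 9827 were called.

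Between bands, 28 of the 37 genes passed the filter, with the library as a block. From under 10% to 15 to 25%, 8 rose within the mitochondrial total, where 14.3% of 11396 genes were called higher, and 5 fell, where 15.6% were called lower. MT-CO1, MT-CO2, MT-CO3, MT-CYB, MT-ATP6, MT-ATP8, MT-ND4L and MT-TT rose, and MT-RNR1, MT-RNR2, MT-ND1, MT-TF and MT-TV fell. The counts were 2 and 2 with cells of more than 1000 genes, where 1469 and 1615 of all 10979 genes were called. They were 1 and 3 without the block, where 1107 and 1071 of all 11396 were called. With UMI counts corrected for collisions they were 6 and 7 (1407 and 1529 of all 11391). Without library 11 they were 5 and 5 (1122 and 1276 of all 12020). MT-ATP8, MT-TT, MT-TF and MT-TV kept their calls with more than 1000 genes, and MT-CO3, MT-RNR1, MT-RNR2 and MT-TV kept theirs without the block. MT-ND5 was called as well without library 6 or 8 (adjusted p 0.0481 and 0.0460), and MT-TM without library 8 (0.0180). With collisions corrected MT-CO1 and MT-ND4L were lost, and MT-TM and MT-TL1 were called lower as well (0.0368 and 0.0379). From under 10% to 25% or more, 7 rose, where 5.69% of genes were called higher, and 4 fell, where 9.96% were called lower. That comparison rests on libraries 10 and 11, and it gave 1 and 1 without library 10 and 3 and 1 without library 11. Each of these fits leaves 1 library in the highest band, so that its spread comes from the other bands and libraries alone. Without the block this step has no term for library or time. It then sets libraries 10 and 11 against the cells under 10% of all 5 libraries, so time is not held apart from band for any gene. With both libraries the comparison gave 3 and 5 with UMI counts corrected for collisions, where 562 and 855 of all 11391 genes were called. It gave 5 and 2 with cells of more than 1000 genes, where 737 and 1617 of all 10979 were called. Of the 7 that rose only MT-ND4L, MT-ND6 and MT-TT stood with that limit, and MT-TK and MT-TL2 were newly called, at log2 differences of 0.85 and 2.14 (adjusted p 0.0273 and 0.00919). With collisions corrected MT-RNR1 was newly called lower, at −0.39 (adjusted p 0.0322).

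**Figure D2:**
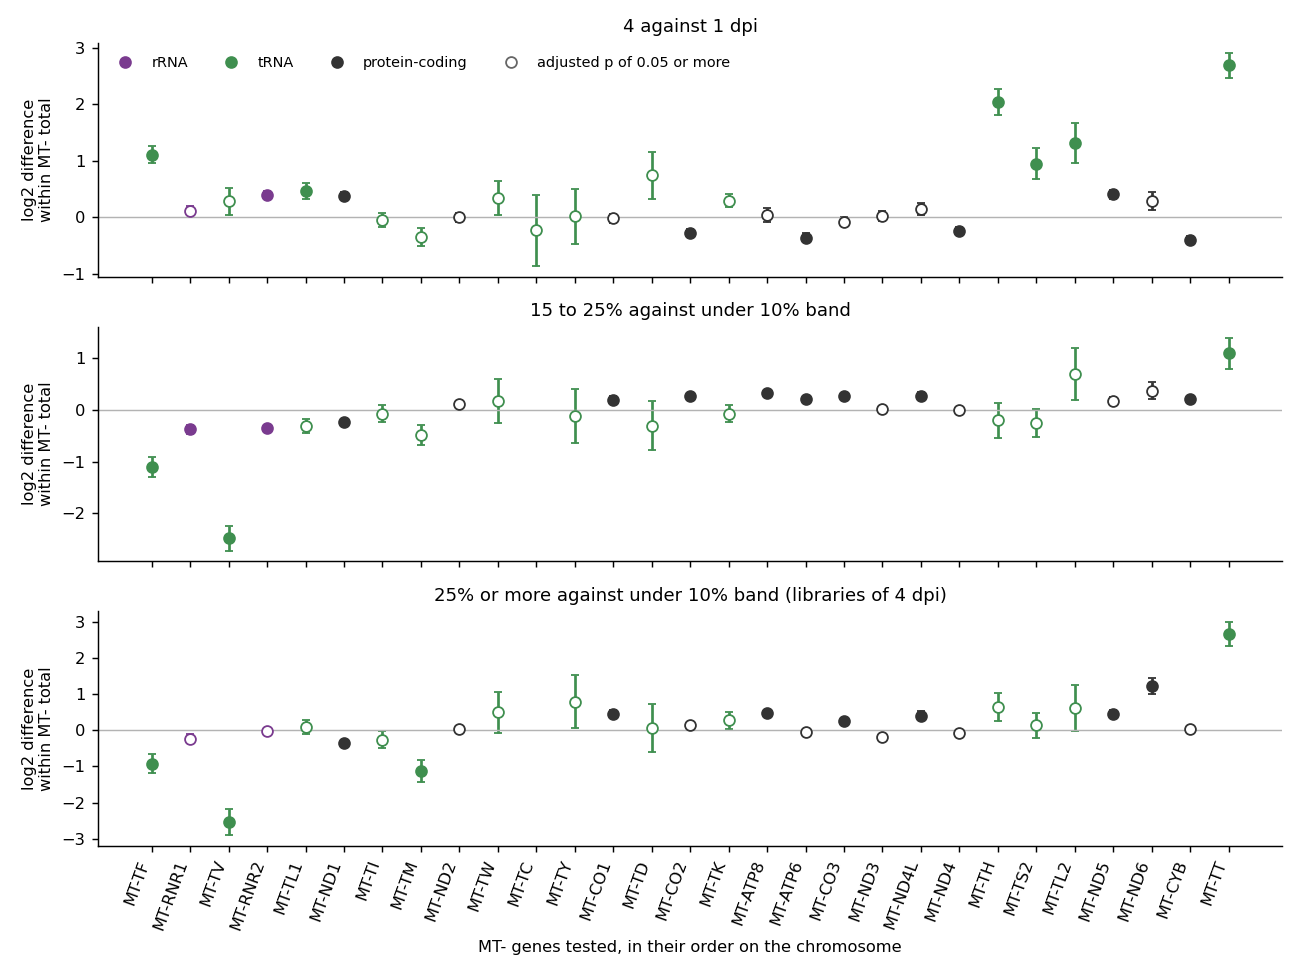
Log2 difference of each mitochondrial gene tested, relative to the mitochondrial total, between 4 and 1 dpi (top), between the bands of 15 to 25% and under 10% (middle), and between 25% or more and under 10% (bottom). Points are edgeR estimates, and bars are standard errors worked back from the F statistic of the test. Filled points have an adjusted p under 0.05 and genes stand in their order on the chromosome. MT-TT, at 2.69, is highest with time, and MT-TV, at −2.48, is lowest between the bands of the middle panel.

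The rRNAs come first by role. MT-RNR1 encodes the RNA of the small ribosomal subunit and MT-RNR2 that of the large subunit, and together they held 577549 UMIs. Their share of the mitochondrial total was 15.9, 15.01 and 15.6% at 1 dpi and 19.4 and 20.5% at 4 dpi. Both libraries of 4 dpi were higher, with a difference of 4.44 points (exact permutation p = 0.1), 3.87 and 4.98 points within the flow cells. Most of the gain was in MT-RNR2, at 13.8, 12.9 and 13.3% of the total at 1 dpi and 17.1 and 18.02% at 4 dpi, a log2 difference of 0.40 ± 0.07 (SE) with an adjusted p of 4.49e-04 in edgeR's quasi-likelihood test. MT-RNR1 was at 2.10, 2.13 and 2.28%, against 2.21 and 2.51%, so its groups overlapped, and its log2 difference was 0.12 ± 0.08 (SE) with an adjusted p of 0.291 in the same test. It was called higher in cells under 10%, at 0.42 (adjusted p 0.0190), and in cells under 15%, at 0.32 (adjusted p 0.0283, same test). The ratio of MT-RNR2 to MT-RNR1 UMIs was 6.58, 6.04 and 5.81 at 1 dpi and 7.75 and 7.18 at 4 dpi, with no overlap (exact permutation p = 0.1). Without MT-RNR2 the rRNA share of the remaining total differed by 0.359 points.

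The rRNA share fell from the lowest band to that of 15 to 25%. It was 17.3, 18.2 and 17.6% in the cells under 10% of libraries 6, 7 and 8 and 23.7 and 24.5% in those of libraries 10 and 11. In the cells of 15 to 25% it was 14.7, 14.9 and 14.04% and then 17.1 and 17.6%. It was lower in the higher band in 5 of 5 libraries, by −4.58 points ± 2.03 (SD, n = 5), with p = 0.063 in an exact sign-flip permutation test, the smallest that 5 libraries allow. Without MT-RNR2 the rRNA share of the remaining total differed by only −0.916 points. In the cells of 25% or more of libraries 10 and 11 the rRNA share was 21.5 and 22.9%, below their own cells under 10% by −2.13 and −1.61 points (exact sign-flip p = 0.5, the smallest that 2 libraries allow) and above their cells of 15 to 25%. The mean of these differences, −1.87 points, was 0.605 with cells of more than 1000 genes. Without pairing by library another gap is taken, that of libraries 10 and 11 from the cells under 10% of all 5 libraries. It was 1.99 points and mixes the time points. The cells under 10% had a mean of 20.3% over all 5 libraries and of 24.1% over libraries 10 and 11. The 4 dpi libraries were above the 1 dpi libraries within each band, by 6.43 points under 10%, 3.83 points from 10 to 15% and 2.78 points from 15 to 25% (exact permutation p = 0.1 in each).

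Both rRNAs took part in the fall. MT-RNR2 had a log2 difference of −0.36 ± 0.05 (SE, adjusted p 3.47e-05, edgeR's quasi-likelihood test) from under 10% to 15 to 25%, and MT-RNR1 one of −0.37 ± 0.09 (SE, adjusted p 0.00372, same test). Both calls were lost with cells of more than 1000 genes, at log2 differences of −0.36 and −0.38 and adjusted p of 0.0656 and 0.123. To 25% or more neither passed, at −0.03 for MT-RNR2 (adjusted p 0.7998) and −0.24 for MT-RNR1 (adjusted p 0.210). Single cells of a library and band varied in rRNA share: among the cells under 10%, the SD was 5.54, 6.89 and 5.43 points in libraries 6, 7 and 8 and 11.4 and 13.04 points in libraries 10 and 11, where counting alone gives between 0.892 and 1.34 points, a level that separate cells can be expected to exceed.

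**Figure D3:**
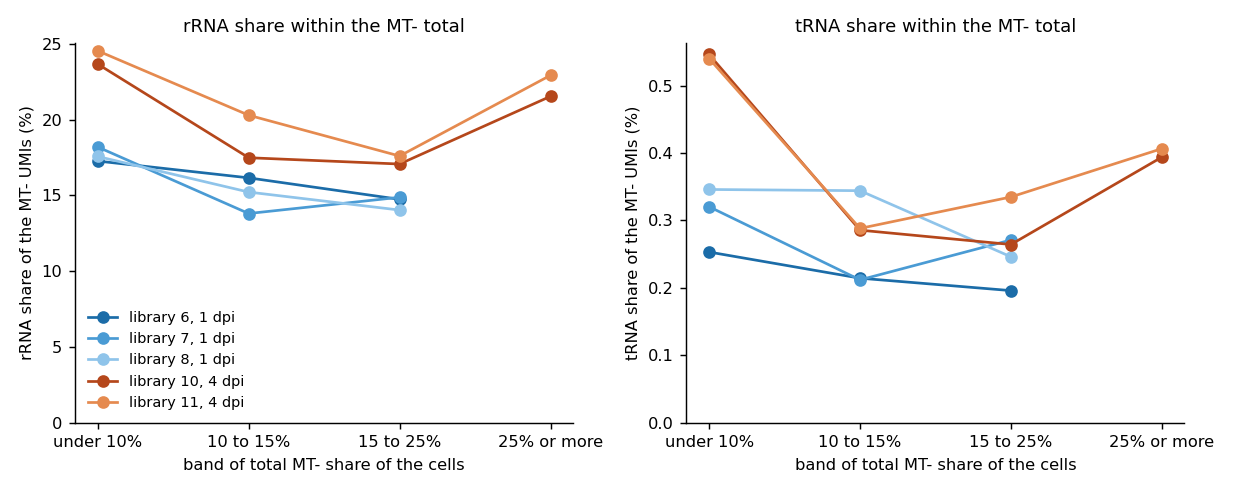
Share of the mitochondrial UMIs from rRNA genes (left) and tRNA genes (right), in %, by band of total mitochondrial share, with 1 line per library and only sums of at least 5 cells. The rRNA share is lower from 15 to 25% than under 10% in all 5 libraries, and in libraries 10 and 11 it stands at 21.5 and 22.9% in the highest band.

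The tRNA genes had 9849 UMIs together. Their share of the mitochondrial total was 0.219, 0.253 and 0.312% at 1 dpi and 0.345 and 0.375% at 4 dpi. The groups did not overlap, and the difference of 0.0990 points had an exact permutation p of 0.2, with 0.110 and 0.0632 points within the flow cells. Without MT-TT and MT-TH the shares overlapped, at 0.210, 0.242 and 0.298% and then 0.279 and 0.323%. In cells of 10 to 15% alone and of 15 to 25% alone the tRNA shares also overlapped, with differences of 0.0301 and 0.0619 points, and in cells under 10% the difference was 0.237 points. From under 10% to 15 to 25% the tRNA share was lower in 5 of 5 libraries, by −0.139 points ± 0.101 (SD, n = 5, exact sign-flip permutation p = 0.063).

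The UMIs of the 22 tRNA genes divided by strand. The 14 genes carried by the transcript of the heavy strand held 9554 UMIs, between 16 and 1729 each, and the 8 of the light strand held 3.00% of the tRNA UMIs, between 13 and 71 each. MT-TK, MT-TI and MT-TM, which carry lysine, isoleucine and methionine, had the most, with 1729, 1410 and 1352. None of these passed the threshold with time within the mitochondrial total, at log2 differences of 0.29, −0.04 and −0.34 and adjusted p of 0.0648, 0.822 and 0.107 in edgeR's quasi-likelihood test. MT-TM passed without library 6, at −0.52 (adjusted p 0.0109, same test), and MT-TV, at 0.28 with an adjusted p of 0.382 in the whole set, passed without library 8, at 0.68 (adjusted p 0.00612, same test). MT-TV also passed in cells under 10%, at 1.20 (adjusted p 2.87e-04), and in cells under 15%, at 0.94 (adjusted p 0.00961).

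MT-TT, the tRNA for threonine, was chosen after its values were seen, as were MT-TH, MT-TF, MT-TV and the other tRNA genes named from here on. MT-TT, with 680 UMIs, held 0.00500, 0.00561 and 0.0101% of the mitochondrial total at 1 dpi and 0.0493 and 0.0363% at 4 dpi. Both libraries of 4 dpi were above all 3 of 1 dpi, and the log2 difference within the mitochondrial total was 2.69 ± 0.22 (SE, adjusted p 1.45e-07, edgeR's quasi-likelihood test). MT-TH, for histidine, held 0.00333, 0.00499 and 0.00354% at 1 dpi and 0.0174 and 0.0151% at 4 dpi, again with no overlap, and had a log2 difference of 2.05 ± 0.23 (SE, adjusted p 6.73e-06, same test). MT-TF, for phenylalanine, held 0.0172, 0.0150 and 0.0177% at 1 dpi and 0.0307 and 0.0411% at 4 dpi, also apart, a log2 difference of 1.11 ± 0.15 (SE, adjusted p 5.19e-05, same test). All these calls stood with any single library left out. In cells under 10% alone MT-TT had an adjusted p of 0.104 and a log2 difference of 1.31, and MT-TH was not tested in cells of 10 to 15%. From 1 to 4 dpi the mean share of MT-TT went from 0.00755 to 0.0245% in cells of 10 to 15% and from 0.00888 to 0.0310% in cells of 15 to 25%. It was 0.0889% in the cells of 25% or more at 4 dpi. The difference of 2.69 over all cells therefore includes a band that was nearly absent at 1 dpi.

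MT-TL1 and MT-TL2, both for leucine, and MT-TS2, for serine, were the other tRNA genes called, at log2 differences of 0.47 ± 0.15, 1.32 ± 0.35 and 0.95 ± 0.27 (SE) and adjusted p of 0.0234, 0.00914 and 0.0141 in edgeR's quasi-likelihood test. None of the 3 passed without library 11, with adjusted p of 0.209, 0.161 and 0.0760. Without library 6, MT-TL1 and MT-TS2 did not pass either (0.0854 and 0.0740), nor MT-TL1 without library 7 (0.0969), with DESeq2 (0.0522) or in cells of more than 3000 genes (0.0572). In cells under 10%, of 10 to 15% and of 15 to 25% alone MT-TL1 did not pass (adjusted p 0.385, 0.197 and 0.0922), nor did MT-TS2 (0.136, 0.342 and 0.0904). Under 15% MT-TL1, MT-TL2 and MT-TS2 all failed to pass (0.163, 0.145 and 0.108), as did MT-TL1 under 25% (0.0832) and MT-TL2 from 10 to 15% (0.614), where its log2 difference was 0.55. MT-TL2 was not tested in cells under 10% and kept its call from 15 to 25%. Of the 14 tRNA genes tested, 8 did not pass with time, and their log2 differences ranged from −0.34 for MT-TM to 0.74 for MT-TD.

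MT-TT and MT-TV moved in opposite directions over the bands. MT-TT held 0.0140 and 0.00968% of the mitochondrial total in the cells under 10% of libraries 10 and 11, 0.0286 and 0.0334% in those of 15 to 25%, and 0.111 and 0.0667% in those of 25% or more, so both libraries rose at each of these steps. Its log2 difference was 1.10 ± 0.30 (SE, adjusted p 0.00913) from under 10% to 15 to 25% and 2.67 ± 0.33 (SE, adjusted p 3.58e-05) to 25% or more in edgeR's quasi-likelihood test. The middle step was not uniform: MT-TT was lower from 15 to 25% than under 10% in library 6, on 11 and 12 UMIs, and higher in the other 4 libraries, and the call was lost without library 11, at 0.85 with an adjusted p of 0.0864.

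MT-TV, the tRNA for valine that lies between the rRNA genes, held 0.0470, 0.0816 and 0.0841% of the mitochondrial total in the cells under 10% at 1 dpi and 0.146 and 0.176% in those at 4 dpi. In the cells of 15 to 25% it held 0.00973, 0.0212 and 0.0181% and then 0.0193 and 0.0228%. Every library was lower from 15 to 25% than under 10%. The log2 difference was −2.48 ± 0.24 (SE, adjusted p 1.92e-06, edgeR's quasi-likelihood test), and this call stood with any library left out. To 25% or more, in libraries 10 and 11, it was −2.54 ± 0.35 (SE, adjusted p 1.16e-04, same test). Without either of these that step rests on 1 library, and over all refits its log2 difference was between −2.68 and −2.29. Per 1000000 of the other UMIs, MT-TV was at 74.8 ± 28.7 under 10%, 49.2 ± 25.8 from 10 to 15% and 40.6 ± 12.3 from 15 to 25% (SD, n = 5). Paired by library it was lower from 15 to 25% than under 10% in 5 of 5 libraries, going from 37.1, 66.1, 70.8, 83.99 and 116.1 to 21.3, 45.05, 37.6, 44.7 and 54.4, while in the highest band of libraries 10 and 11 it was at 136.3 and 233.2. MT-RNR2 on that same scale went from 12617 ± 838 to 20663 ± 3681 and 30314 ± 5456 (SD, n = 5). For so abundant a mitochondrial gene this rise follows in large part from how the bands were made, so it was not counted as evidence.

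MT-TF, on the other side of MT-RNR1, also fell over the bands, by a log2 difference of −1.10 ± 0.19 (SE, adjusted p 3.38e-04) to 15 to 25% and −0.93 ± 0.26 (SE, adjusted p 0.0222) to 25% or more in edgeR's quasi-likelihood test. MT-TM fell in the highest band, at −1.12 ± 0.30 (SE, adjusted p 0.0166, same test). MT-TH did not pass in either step, at −0.20 and 0.64. The highest-band calls of MT-TF and MT-TM were lost without library 10 (adjusted p 0.160 and 0.291) and without library 11 (0.221 and 0.0861). They were lost as well with cells of more than 1000 genes, at −0.59 for MT-TF and −0.08 for MT-TM (adjusted p 0.106 and 0.870), and with cells of more than 3000 genes, at −0.90 and −1.03 (0.0660 and 0.0828). That of MT-TF was also lost without the block, at −0.30 (0.718), a fit that does not hold time apart from the highest band.

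**Figure D4:**
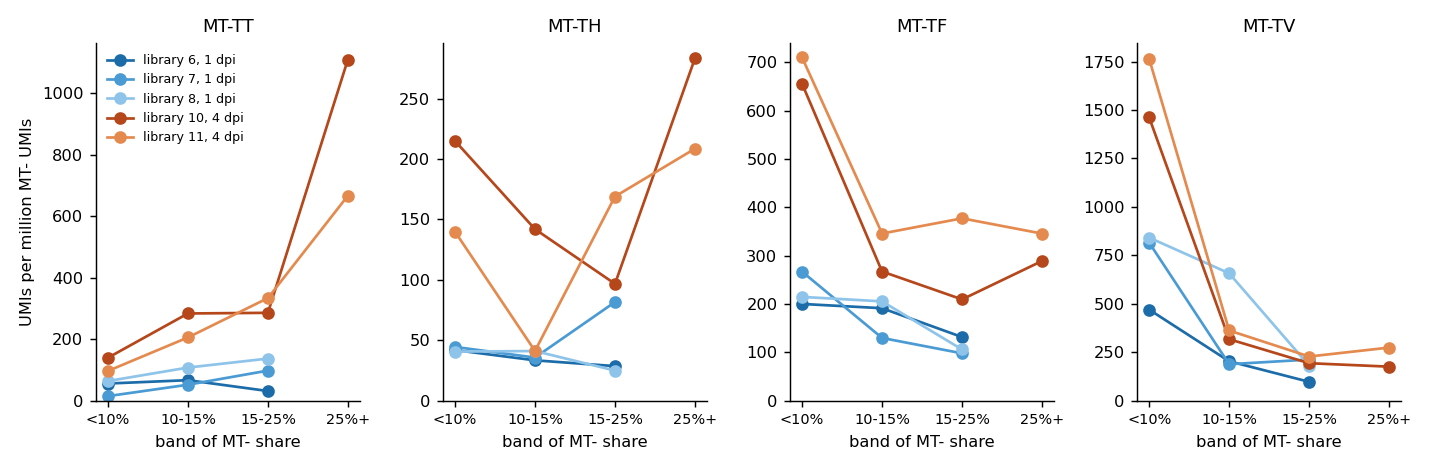
Level of MT-TT, MT-TH, MT-TF and MT-TV, as UMIs per 1000000 mitochondrial UMIs, by band of mitochondrial share, with 1 line per library and only sums of at least 5 cells. MT-TT reaches 1111 and 667 in the highest band of libraries 10 and 11, while MT-TV is highest in the lowest band of every library among the sums shown, with 1462 and 1764 in the same 2 libraries.

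Complex I, the NADH dehydrogenase that feeds electrons into the chain, has 7 mitochondrially encoded subunits. They held 48.6, 50.4 and 49.4% of the protein-coding mitochondrial UMIs at 1 dpi and 54.2 and 54.3% at 4 dpi, with no overlap (exact permutation p = 0.1, 4.68 and 4.94 points within the flow cells). MT-ND1, a membrane subunit next to the quinone site, rose from 11.5, 11.9 and 11% of the mitochondrial total to 14.95 and 14.9%, a log2 difference of 0.38 ± 0.07 (SE, adjusted p 6.51e-04, edgeR's quasi-likelihood test). MT-ND5, a proton-pumping subunit, rose from 1.58, 1.64 and 1.64% to 2.05 and 2.27%, a log2 difference of 0.41 ± 0.08 (SE, adjusted p 9.98e-04, same test), though not in cells under 10% alone (0.14, adjusted p 0.474). MT-ND4, also a proton-pumping subunit, fell from 16.3, 16.3 and 16.6% to 13.8% in both libraries of 4 dpi. Its log2 difference was −0.25 ± 0.07 (SE, adjusted p 0.0115, same test), with an adjusted p of 0.0502 without library 11, and the call was also lost in cells of 10 to 15% (−0.20, adjusted p 0.0917) and of 15 to 25% (−0.16, adjusted p 0.0891). So genes of the same complex moved apart, and the ratio of MT-ND1 to MT-ND4 UMIs was 0.706, 0.729 and 0.663 at 1 dpi and 1.08 in both libraries of 4 dpi.

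The other complex I genes, MT-ND2, MT-ND3, MT-ND4L and MT-ND6, did not pass with time, at log2 differences of 0.00, 0.02, 0.14 and 0.29, though MT-ND6 did without library 6 (0.48, adjusted p 0.0449). All 4 encode membrane subunits, and MT-ND6 is the protein-coding gene of the light-strand transcript. Over the bands MT-ND1 fell, at −0.23 ± 0.05 (SE, adjusted p 0.00145) to 15 to 25% and −0.34 ± 0.07 (SE, adjusted p 0.00305) to 25% or more in edgeR's quasi-likelihood test. MT-ND4L rose, at 0.27 ± 0.08 (SE, adjusted p 0.0167) and 0.41 ± 0.12 (SE, adjusted p 0.0227, same test), the former lost without library 10 (adjusted p 0.0968) or 11 (0.137), with UMI counts corrected for collisions (0.122) and with bands set as 3 equal parts of each library's cells (0.0594). MT-ND5 and MT-ND6 rose in the highest band, at 0.46 ± 0.09 (SE, adjusted p 0.00364) and 1.23 ± 0.22 (SE, adjusted p 0.00141, same test), but whether their steps differ between bands was not tested, and MT-ND6 was also called between the lowest and highest of 3 equal parts of each library's cells, at 0.56 (adjusted p 0.0451). MT-ND6 held 0.0183 and 0.0194% of the total under 10% in libraries 10 and 11, 0.0230 and 0.0299% from 15 to 25%, and 0.0465 and 0.0471% from 25% up, so both libraries stood highest in the highest band. Without library 10 the highest-band calls of MT-ND1, MT-ND4L, MT-ND5 and MT-ND6 were lost (adjusted p 0.111, 0.196, 0.164 and 0.063), and without library 11 those of MT-ND1 and MT-ND4L (0.0897 and 0.212). That of MT-ND5 was also lost with UMI counts corrected for collisions, at 0.19 (adjusted p 0.273), and with cells of more than 1000 genes, at 0.27 (0.105). Without the block, where time is not held apart from the highest band, MT-ND1 and MT-ND4L were lost, at −0.09 and 0.43 (0.754 and 0.0658). MT-ND4L was also lost with cells of more than 3000 genes, at 0.40 (0.0658), and with collisions corrected, at 0.34 (0.0669). MT-ND6 kept its call in each of these.

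Complex III passes electrons from quinol to cytochrome c, and MT-CYB, its cytochrome b, is its mitochondrially encoded subunit. MT-CYB held 6.69, 7.06 and 6.34% of the mitochondrial total at 1 dpi and 5.17 and 4.98% at 4 dpi. Both later libraries were lower, at a log2 difference of −0.40 ± 0.08 (SE, adjusted p 9.19e-04, edgeR's quasi-likelihood test). The call stood in cells under 10%, of 10 to 15% and of 15 to 25% alone, and without library 6, 7 or 8. Without library 10 or 11 only 1 library is left at 4 dpi, and over all refits the log2 difference was between −0.44 and −0.36. MT-CYB rose from the lowest band to that of 15 to 25%, from 6.28, 6.09, 5.78, 4.65 and 4.57% under 10% in libraries 6, 7, 8, 10 and 11 to 7.14, 7.02, 6.77, 5.45 and 5.31% from 15 to 25%, a log2 difference of 0.21 ± 0.05 (SE, adjusted p 0.00345, same test). In the highest band of libraries 10 and 11 it was back at 4.94 and 4.63%, and its log2 difference from under 10% was 0.05 (adjusted p 0.691).

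Complex IV, the cytochrome c oxidase that reduces oxygen, has MT-CO1, MT-CO2 and MT-CO3 as its catalytic core. Their share of the protein-coding UMIs overlapped between the time points, at 29.6, 26.5 and 28.8% and then 26.8 and 27.7% (exact permutation p = 0.5). MT-CO2 fell from 9.36, 8.97 and 9.86% of the mitochondrial total to 7.70 and 7.79%, a log2 difference of −0.28 ± 0.07 (SE, adjusted p 0.00868, edgeR's quasi-likelihood test). In cells of 15 to 25% alone that call was lost (−0.19, adjusted p 0.0651). MT-CO1 and MT-CO3 did not pass, at −0.02 and −0.08. From under 10% to 15 to 25%, MT-CO1 rose by 0.20 ± 0.07, MT-CO2 by 0.26 ± 0.06 and MT-CO3 by 0.28 ± 0.05 on the log2 scale (SE, adjusted p 0.0372, 0.00199 and 3.59e-04, same test). In library 6 MT-CO1 was lower in the higher band, at −0.13, and in libraries 7, 8, 10 and 11 it was higher. The call of MT-CO1 was lost without library 7, 10 or 11 (adjusted p 0.136, 0.129 and 0.236), with DESeq2 (0.0990), with UMI counts corrected for collisions (0.199), and when the bands were set without MT-CO1 itself (0.153). In the highest band MT-CO1 and MT-CO3 were called, at 0.45 and 0.26 (adjusted p 0.00564 and 0.0155), and MT-CO2 was not, at 0.16, and both calls were lost without library 10 (0.156 and 0.120) or 11 (0.0822 and 0.293). They were also lost with cells of more than 1000 genes, at 0.05 and 0.08 (adjusted p 0.805 and 0.683), with UMI counts corrected for collisions, at 0.19 and 0.22 (0.364 and 0.0782), and without the block, at 0.34 and 0.18 (0.0809 and 0.191). That last fit does not hold time apart from the highest band.

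Complex V, the ATP synthase, has MT-ATP6 and MT-ATP8 as subunits of its membrane part. They held 13.8, 14.7 and 14.3% of the protein-coding UMIs at 1 dpi and 12.6 and 11.7% at 4 dpi, with no overlap (exact permutation p = 0.1, −1.64 and −2.65 points within the flow cells). MT-ATP6 fell from 10.6, 11.2 and 10.7% of the mitochondrial total to 8.77 and 8.14%, a log2 difference of −0.36 ± 0.07 (SE, adjusted p 0.00155, edgeR's quasi-likelihood test), and MT-ATP8 did not pass, at 0.04 ± 0.12. Both rose from under 10% to 15 to 25%, at 0.22 ± 0.05 and 0.32 ± 0.07 (SE, adjusted p 0.00231 and 0.00152, same test). The call of MT-ATP6 was lost with bands set as 3 equal parts of each library's cells (0.15, adjusted p 0.123). In the highest band MT-ATP8 was called, at 0.47 ± 0.10 (SE, adjusted p 0.00332, same test), and MT-ATP6 was not, at −0.05. The call of MT-ATP8 there was lost without library 10 or 11 (adjusted p 0.0731 and 0.0847), with cells of more than 1000 genes (0.30, 0.0660) and without the block (0.42, 0.0996).

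The order of the genes by level depended on the scale. By share of the mitochondrial UMIs MT-ND4 was first at 1 dpi, at 16.4% ± 0.155 (SD, n = 3), and MT-RNR2 at 4 dpi, at 17.6% ± 0.625 (SD, n = 2). Reads primed at poly(A) need not scale with the length of a gene, so the values per length, as UMIs per 10000 mitochondrial UMIs and kb of gene, are given beside that order and not in its place. Per length MT-ATP6 was highest at 1 dpi, at 1590.4 ± 44.2 (SD, n = 3), followed by MT-CO2 at 1374 ± 64.8 and MT-ND3 at 1271 ± 99.2, and the ranges of these last 2 overlapped. MT-ND1 at 1199.6 ± 47.2 and MT-ND4 at 1190.3 ± 11.2 (SD, n = 3) did not differ beyond theirs. At 4 dpi MT-ND1 was highest, at 1562 ± 2.59 (SD, n = 2), followed by MT-ND3 at 1289 ± 91.2 and MT-ATP6 at 1241 ± 65.6. MT-RNR2 was at 855 ± 30.99 and 1128 ± 40.1, and MT-RNR1 at 227.9 ± 10.2 and 247.6 ± 22.1, at 1 and 4 dpi. MT-ND5 at 89.5 and MT-ND6 at 4.71 were the lowest of the protein-coding genes at 1 dpi. The 22 tRNA genes lay between 0.514 for MT-TP and 68.4 for MT-TK at 1 dpi, and at 4 dpi MT-TT, at 64.8 ± 13.9 (SD, n = 2), stood beside MT-TV at 64.3 ± 9.54 and MT-TL1 at 64.04 ± 8.34.

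**Figure D5:**
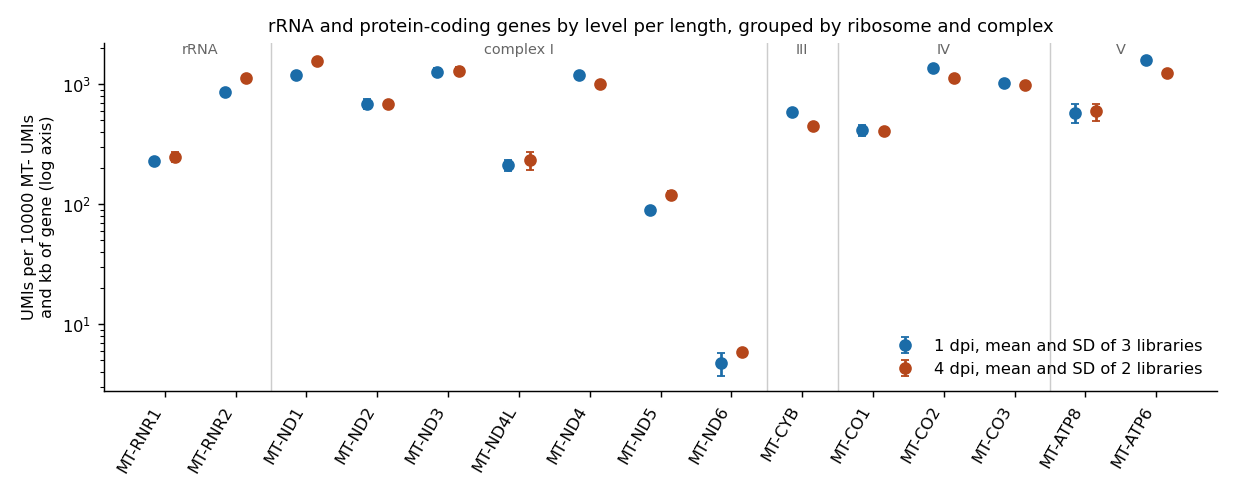
UMIs per 10000 mitochondrial UMIs and kb of gene for the rRNA and protein-coding genes, on a log axis, grouped by ribosome and respiratory complex. Points are means and bars are SDs over the 3 libraries of 1 dpi and the 2 of 4 dpi. Per length MT-ATP6 is highest at 1 dpi, at 1590.4, and MT-ND1 at 4 dpi, at 1562.

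Whether the step from under 10% to 15 to 25% differed between 1 and 4 dpi was tested as an interaction. Of the 28 genes, 1 had a higher step at 4 dpi, where 4.73% of all genes were called higher, and 3 had a lower one, where 6.79% were called lower. MT-CO2 was the higher, at 0.33 ± 0.09 (SE, adjusted p 0.0196, edgeR's quasi-likelihood test), and MT-RNR1, MT-TI and MT-TM the lower, at −0.53, −0.84 and −1.11 (adjusted p 0.00542, 0.0388 and 0.00989, same test). From under 10% to 15 to 25% MT-RNR1 went from 2.31, 2.45 and 2.44% of the mitochondrial total to 1.94, 2.27 and 2.24% in libraries 6, 7 and 8, and from 2.97 and 3.45% to 1.85 and 2.11% in libraries 10 and 11. The count of 4 was 0 with cells of more than 1000 genes and 0 with UMI counts corrected for collisions. In these fits 0 and 5 of the MT- genes had an unadjusted p under 0.05. Both fits also called smaller shares of all genes, higher and lower, than the 4.73 and 6.79% given above. The loss of calls was therefore not limited to the MT- genes. DESeq2 called 3, without MT-TI (adjusted p 0.0861). Without the block MT-CO2 and MT-TI were lost (0.0909 and 0.0696), and in cells of more than 3000 genes MT-TV was called as well, at −1.62 (0.00705). With 3 equal parts of each library MT-CO2 and MT-RNR1 were lost (0.250 and 0.260), and MT-CO1, MT-TT and MT-TV were newly called, at 0.38, 1.95 and −0.91 (0.0468, 0.0179 and 0.0228). MT-CO1 was also called when the bands were set without it, at 0.33 (0.0494). The count was 3 without library 6, where MT-TI was lost (adjusted p 0.0609), and 2 without library 7, where MT-CO2 and MT-TI were lost (0.0613 and 0.176). It was 1 without library 10, leaving MT-RNR1, and 1 without library 11, leaving MT-TM.

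Nuclear genes whose products work with these RNAs were looked at by list, with no test of a list as a whole, and of all genes tested by level 14.6% were higher at 4 dpi and 15.5% lower. Of 37 nuclear complex I subunits tested, 14 were higher at 4 dpi and 0 lower, with NDUFB10 at a log2 difference of 0.90, and of 11 complex IV subunits 2 were higher and 0 lower. Of 18 complex V subunits 2 were higher and 1 lower, and of 9 complex III subunits 2 were higher and 0 lower. Of 34 genes of mitochondrial RNA processing and decay tested, 2 were higher and 11 lower, with FASTKD3 at −1.09 and FASTKD5 at −0.94. Of 76 mitochondrial ribosomal proteins 12 were higher and 12 lower, and of 16 genes of mitochondrial DNA maintenance and transcription 0 were higher and 3 lower.

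Between the bands the same lists were read in the step from under 10% to 15 to 25%, where 14.3% of all genes were higher and 15.6% lower. There 29 of 37 nuclear complex I subunits were higher relative to the other UMIs, with 5 of 9 of complex III, 11 of 11 of complex IV and 16 of 18 of complex V, and 0 were lower in each. Of 76 mitochondrial ribosomal proteins 25 were higher and 4 lower, of 33 genes of RNA processing and decay 2 were higher and 7 lower, and of 15 genes of DNA maintenance and transcription 1 was higher and 0 lower.

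The libraries were also looked at for cells of other kinds. All 7 epithelial markers had UMIs, 131448 together, of which KRT8, the most abundant, had 53643. The list as a whole stood at 4682, 5397 and 5747 per 1000000 UMIs at 1 dpi and 4562 and 4725 at 4 dpi, so the groups overlapped. Of the other epithelial markers CDH1, KRT18 and KRT19 were lower at 4 dpi by level, at log2 differences of −0.75, −0.44 and −0.41 (adjusted p 0.00348, 0.0271 and 0.00924, edgeR's quasi-likelihood test). Of the leukocyte and macrophage markers 4 of 5 had UMIs, with CD68 the most abundant and AIF1 at 0, and the list together stood at 7.58, 8.32, 6.25, 5.28 and 4.82 per 1000000 in libraries 6, 7, 8, 10 and 11. Of the fibroblast markers 2 of 3 had UMIs, nearly all from COL1A1 with COL1A2 at 0, and together they stood at 1.46, 4.07, 3.13, 15.4 and 6.75 on that scale, and COL1A1 was higher at 4 dpi, at a log2 difference of 2.06 (adjusted p 0.00109, same test). The endothelial markers had 44 UMIs on 2 of 3 genes, most from PECAM1 with CDH5 at 0, and as a list stood at 2.00, 1.48, 1.25, 1.61 and 1.93. The erythroid markers had 160 on 3 of 3, most from HBA1, and as a list stood at 5.06, 8.32, 9.80, 3.90 and 3.13, with HBA1 lower at 4 dpi, at −1.15 on the log2 scale (adjusted p 0.0339, same test). In the step from under 10% to 15 to 25% KRT8, EPCAM and KRT18 were higher, at log2 differences of 0.56, 0.44 and 0.40 (adjusted p 7.66e-05, 7.91e-04 and 0.00315), and CDX2 and COL1A1 were lower, at −0.71 and −1.90 (adjusted p 0.0364 and 0.0163, same test). Wells were sorted singly, and no doublet caller was run.

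MTRNR2L1, a nuclear near-copy of MT-RNR2, can receive reads of MT-RNR2 or lend its own. It had 0.286, 0.480, 0.429, 0.317 and 0.330 per 100 UMIs of MT-RNR2 in libraries 6, 7, 8, 10 and 11, and the groups overlapped. Per 10000 other UMIs MTRNR2L1 was at 0.540, 0.832 and 0.718 at 1 dpi and 0.9295 and 1.08 at 4 dpi, with no overlap (exact permutation p = 0.2), and by level it was called higher at 4 dpi, at a log2 difference of 0.49 (adjusted p 0.0201, edgeR's quasi-likelihood test). In cells under 10%, of 10 to 15% and of 15 to 25% alone the groups overlapped per 10000 other UMIs, with differences of −0.0764, 0.0988 and −0.0129. How many reads MTRNR2L1 and MT-RNR2 share was not tested.

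Genes that share bases on a strand could not be told apart there, and no strand was stated for the counts. MT-ATP8 and MT-ATP6 share 46 bases, MT-ND4L and MT-ND4 share 7, and MT-ATP6 and MT-CO3, and MT-TC and MT-TY, share 1 each. MT-TI and MT-TQ share 3 bases on opposite strands, and for 25 of the neighbouring pairs no base lies between the genes, so that a read from an uncut precursor can be counted for the neighbour. The parts of precursors and of reads shared with neighbours in the tRNA values were not tested.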

How the data were processed

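The deposited tables hold UMI counts per gene and well, and the authors' notes name BWA and hg38. The 384 well barcodes are shared by all plates, so wells were kept apart by library. Wells with more than 2000 human genes were cells. They were summed per library, or per library and band with at least 5 cells, over genes listed in all 5 libraries and seen in at least 10 wells. Sums were tested with edgeR 4.0.16 in R 4.3.3, using its quasi-likelihood test and filter on low counts, and with DESeq2 1.42.0 as an alternative. Each SE given with an edgeR log2 difference is the size of that difference divided by the square root of the test's F statistic. Levels used TMM factors over all genes, and fits within the mitochondrial total used an offset. Sums and exact permutation tests were made in Python 3.11.15. Gene positions are from GENCODE 44 on hg38. The largest count of a gene in a well was 2881, and the correction for collisions assumed 4096 possible UMIs. Members and lists were chosen with earlier results of these data known. Genes named in the report are all rRNA and protein-coding members, the 3 tRNA genes with the most UMIs, tRNA genes called in a comparison or changing a call, and up to 3 called genes per list and direction.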

Additional observations from a re-analysis of the deposited data

Results flagged for a closer look

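Some results were set aside because the step between bands differed between the time points. For MT-CO2 the log2 difference of the steps was 0.33, for MT-RNR1 −0.53, for MT-TI −0.84 and for MT-TM −1.11, each with an adjusted p under 0.05 in edgeR's quasi-likelihood test. MT-ND4 moved in opposite directions from under 10% to 15 to 25%, with a mean log2 of 0.12 at 4 dpi and negative values in all libraries of 1 dpi, but the difference of the steps did not pass in the same test, at 0.20 ± 0.09 (SE, adjusted p 0.124).

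Wells of 2000 genes or fewer were not among the cells compared, except that those of more than 1000 genes entered the alternative with that limit. Their mitochondrial share was 27.4, 22.2 and 21.6% at 1 dpi and 60.0 and 47.6% at 4 dpi. In 28 groups of 5 libraries, 0 libraries stood apart, where chance alone gives about 1 in 20 groups.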

How the results depend on the processing

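The single-band and spike-in alternatives were added after the data were seen. A limit on the mitochondrial share holds the mitochondrial level down by construction, and the cause of the other changes was not tested. No paired analysis was possible because the groups share no replicate numbers, but with the flow cell as a term 19 MT- genes were higher and 0 lower by level, and 9 and 4 within the mitochondrial total, and the comparisons of bands were paired by library.

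By level, 21 MT- genes higher at 4 dpi became 13 with more than 3000 genes, 9 under 25%, 3 under 15%, 0 per spike-in UMI, and 3, 5 and 8 in cells under 10%, of 10 to 15% and of 15 to 25%, with 15 to 20 when libraries were left out. The 0 lower became 3 under 25%, 8 under 15%, 8 in cells under 10% and 1 in cells of 15 to 25%, with 0 to 0 when libraries were left out. Within the mitochondrial total, 9 higher became 5 in cells of 10 to 15% (6 to 10 with libraries left out), and 4 lower became 2 in cells of 15 to 25% (3 to 5).

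From under 10% to 15 to 25%, 8 higher became 2 with more than 1000 genes and 1 without the block (5 to 9 with libraries left out), and 5 lower became 2 and 3 (5 to 6). To 25% or more, 7 higher became 3 with collisions corrected and 3 without the block (1 to 7), and 4 lower became 2 with more than 1000 genes, 2 with more than 3000 and 2 without the block (1 to 4). The 4 interactions became 0 with more than 1000 genes, 0 with collisions corrected and 2 without the block (1 to 4). Each of these settings also called fewer of all genes, higher and lower, than the main fit.

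The difference of 3.31 points in total share became 4.33 with more than 1000 genes, 1.82 with more than 3000, 0.471 under 25%, −1.48 under 15%, 5.78 as a mean over cells and 2.41 without MT-RNR2 (2.95 to 3.67 with libraries left out). The rRNA share, 4.44 points, became 5.34 with collisions corrected, 3.57 under 25%, 5.14 under 15%, 0.359 without MT-RNR2, 6.43 in cells under 10% and 2.78 in cells of 15 to 25% (3.85 to 5.03). The tRNA share, 0.0990 points, became 0.237 in cells under 10% and 0.0301 in cells of 10 to 15% (0.0779 to 0.124). The rRNA step of −4.58 points to 15 to 25% became −0.916 without MT-RNR2 (−5.10 to −3.99). The step of −1.87 points to 25% or more became 0.605 with more than 1000 genes, −3.78 with more than 3000, −0.568 with collisions corrected, −4.09 with bands set without the class and −1.01 without MT-RNR2 (−2.13 to −1.61). Without the block it was 1.99, but against the cells under 10% of all 5 libraries, which mixes the time points.

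Log2 levels at 4 dpi that turned negative under 15% were MT-ND2 −0.30, MT-CO1 −0.46, MT-CO2 −0.67, MT-ATP8 −0.44, MT-ATP6 −0.66, MT-CO3 −0.46, MT-ND3 −0.25, MT-ND4L −0.35, MT-ND4 −0.56, MT-ND5 −0.042, MT-ND6 −0.39, MT-TK −0.13 and MT-TI −0.093. Under 25% they were MT-CO1 −0.070, MT-CO2 −0.22, MT-ATP6 −0.27 and MT-CO3 −0.053, and per spike-in UMI MT-CO1 −0.025, MT-CO3 −0.062 and MT-TI −0.018. In cells under 10% they were MT-ND2 −0.37, MT-CO1 −0.77, MT-CO2 −0.92, MT-ATP8 −0.59, MT-ATP6 −0.85, MT-CO3 −0.64, MT-ND3 −0.34, MT-ND4L −0.59, MT-ND4 −0.77, MT-ND5 −0.26, MT-ND6 −0.60 and MT-TL1 −0.069. In cells of 10 to 15% they were MT-CO3 −0.015 and MT-TI −0.019, and in cells of 15 to 25% MT-TI −0.20.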

Other observations

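Over all cells, MALAT1 stood at 25.5, 26.02 and 24.02 UMIs per 10000 other UMIs at 1 dpi and 43.1 and 41.2 at 4 dpi, and NEAT1 at 2.70, 2.17 and 2.73 and then 6.44 and 6.24, with no overlap in either. Their log2 differences by level were 0.70 for MALAT1 and 1.28 for NEAT1 (adjusted p 1.29e-05 and 1.62e-07, edgeR's quasi-likelihood test). NEAT1 was also called higher from under 10% to 15 to 25%, at a log2 difference of 0.55 (adjusted p 0.0181), and MALAT1 was not, at 0.05 (adjusted p 0.758, same test). The libraries were not uniform in this step. Per 10000 other UMIs NEAT1 was higher in libraries 6, 10 and 11 and lower in libraries 7 and 8, at −0.387 and −0.127 (exact sign-flip permutation p = 0.25).

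In cells of 25% or more of libraries 10 and 11, MALAT1 stood at 122.5 and 144.6 UMIs per 10000 other UMIs, against 43.2 and 37.5 under 10%. NEAT1 stood at 18.6 and 13.6, against 4.74 and 3.88. The median number of genes there was 2968.5 and 2668. MTRNR2L1 stood at 5.32 and 5.83 per 10000 other UMIs, against 0.346 and 0.425 under 10%.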
